A study of Homo sapiens with 6 samples.

Results

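The classical cadherins *CDH1* and *CDH2* and the catenins *CTNNB1*, *JUP*, *CTNNA1* and *CTNND1* were described in HEK293T cells that over-expressed *USF1*. *CDH1* was chosen by its large rise between USF1 and Empty vector arrays in an earlier analysis of these data, and the other genes were chosen by their place in the adherens junction. All differences of these 6 genes between the groups are therefore given as a description. Whether a probeset of theirs passed the threshold is stated, but no p-value is printed for them and nothing is concluded from a call. The platform annotation assigned 11 of the 16569 measured probesets to them, 1 each to *CDH1*, *CTNNB1* and *JUP*, 2 to *CDH2* and 3 each to *CTNNA1* and *CTNND1*. In all, 9586 genes had a probeset named for them alone. The 3 *CTNND1* probesets are also assigned to the read-through gene *TMX2-CTNND1*, so transcripts of both were measured together.

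HEK293T cells descend from human embryonic kidney and make the large T antigen of SV40. The 3 USF1 arrays hold RNA of cells 48 hours after transient transfection with a plasmid that carries the coding region of *USF1*, a transcription factor binding E-box sequences, behind a histidine tag, and the 3 Empty vector arrays hold RNA of the same line after transfection with the vector. All 6 arrays thus come from a single transfected line that makes its own USF1 protein, and it is not stated whether each array had a transfection of its own. Values are deposited RMA expression values on the log2 scale, on which a difference of 1 is a 2-fold change. A value combines how many transcripts bind the probes with how well they bind, so levels are compared between arrays and never between genes, and fewer cells that express a gene cannot be told apart from less RNA per cell.

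Cadherins are transmembrane proteins that hold neighbouring cells together through calcium-dependent binding of their extracellular repeats. Inside the cell, β-catenin (*CTNNB1*) or its close relative plakoglobin (*JUP*) binds the cadherin tail and is bound in turn by α-catenin (*CTNNA1*), which reaches the actin cytoskeleton, while p120-catenin (*CTNND1*) binds nearer the membrane and slows the removal of cadherin from the surface. E-cadherin (*CDH1*) is typical of epithelia and N-cadherin (*CDH2*) of neural and mesenchymal cells. β-catenin is also the effector of Wnt signalling, in which it enters the nucleus and acts with TCF and LEF factors.

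Array quality differed within the Empty vector group. Empty vector replicate 1 differed from each other Empty vector array by an SD of 0.336 over all probesets, against 0.182 between replicates 2 and 3. The 5' minus 3' difference of the actin control probesets, which falls when RNA is degraded or copied short, was -1.34 in Empty vector replicate 1 and -1.04 in replicate 2, but -0.516 in replicate 3 and between -0.681 and -0.493 in USF1 arrays. The same difference of the *GAPDH* control probesets was -0.58 in Empty vector replicate 1, -0.32 in replicate 2 and -0.26 in replicate 3. In USF1 arrays it lay between -0.345 and -0.322, so only Empty vector replicate 1 stood apart downward by this control. The part of RNA quality in the differences given here was not tested. Of 12 genes listed as expressed in HEK293 cells, 6 were measured, among them vimentin (*VIM*, mean log2 value 10.05 in Empty vector cells) and the neurofilament *NEFM* (10.34). Within this list the neuronal filament gene *INA* fell by 0.39 (SE 0.084, limma adjusted p-value = 0.0240). The neurofilament *NEFL* was called higher at 2 of its 3 probesets, by 0.41 and 0.38, but not at the brightest (0.15, SE 0.089). None of 20 markers of blood, endothelial, fibroblast, fat and liver cells had a value here, and they are not analysed.

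*CDH1* was the only member with a large difference between the groups. Its probeset (201131_s_at) had log2 values of 5.10, 4.81 and 4.73 in Empty vector replicates 1, 2 and 3. It had values of 6.70, 6.67 and 6.58 in USF1 replicates 1, 2 and 3. Every USF1 array lay well above every Empty vector array, and the USF1 arrays lay closer together (SD 0.063, n = 3) than the Empty vector arrays (SD 0.192, n = 3). The mean rose from 4.88 to 6.65, a log2 difference of 1.77 (SE 0.11), or 3.40-fold on the linear scale. Ordered by difference, this probeset was number 11 from the top of all 16569, and 0.06% of probesets had a larger difference in either direction. Within the Empty vector group, the highest *CDH1* value belonged to replicate 1, the array that stood apart. The difference was 1.88 without that array and 1.73 without Empty vector replicate 2, the other array with a low actin value. Over all arrays left out in turn it lay between 1.69 and 1.88. As *CDH1* had a single probeset, no second set of probes could be set against it.

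**Figure D1:**
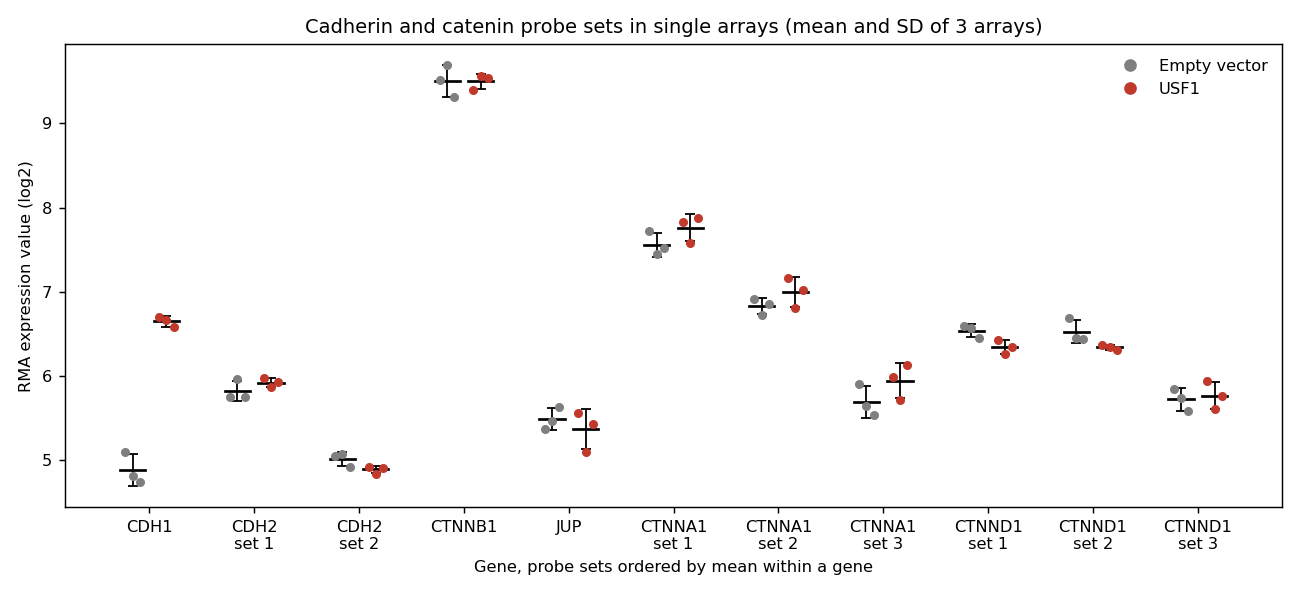
Expression by RMA (vertical axis, log2) at the 11 probesets of cadherin and catenin genes (horizontal axis, ordered by mean within a gene), each array as a point (Empty vector grey, USF1 red), long bars at the group means and error bars of 1 SD (n = 3). The *CDH1* arrays of the groups are far apart, from 4.73 to 5.10 in Empty vector and from 6.58 to 6.70 in USF1, while in *CTNNB1*, *JUP* and *CTNNA1* they overlap.

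*CDH2*, the cadherin otherwise typical of neural and mesenchymal cells, showed small differences that went in opposite directions at its probesets. The brighter one (203440_at) had values of 5.75, 5.96 and 5.74 in Empty vector replicates 1 to 3. Its USF1 values were 5.97, 5.86 and 5.92, which overlap those of Empty vector. The difference was 0.099 (SE 0.094), with a 95% interval from -0.11 to 0.31. The dimmer one (203441_s_at) had values of 5.05, 5.07 and 4.92 in Empty vector and 4.92, 4.84 and 4.91 in USF1 arrays. Its USF1 values lay just below all Empty vector values, by a difference of -0.12 (SE 0.085, 95% interval -0.32 to 0.070). The mean of the probesets was -0.012, so these arrays give no single direction for *CDH2*. The intervals of its probesets reach from 0.802 to 1.24 times the Empty vector level.

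*CTNNB1* and *JUP*, which occupy the same position on the cadherin tail, had differences near 0. *CTNNB1* (201533_at) had log2 values of 9.51, 9.69 and 9.31 in Empty vector arrays and 9.40, 9.56 and 9.55 in USF1 arrays. The USF1 values fell inside the range of the Empty vector values, and the difference was -0.0043 (SE 0.11, 95% interval -0.26 to 0.25), or between 0.833 and 1.19 times the Empty vector level. Of all probesets, 98.5% had a larger difference in size. The amount and place of β-catenin protein were not measured by these arrays. *JUP* (201015_s_at), which also serves in desmosomes, had values of 5.37, 5.46 and 5.63 in Empty vector arrays. Its USF1 values were 5.56, 5.10 and 5.43, spread more widely (SD 0.238, n = 3) than those of Empty vector (SD 0.133, n = 3) because of the low USF1 replicate 2. The groups overlapped, with a difference of -0.12 (SE 0.13, 95% interval -0.42 to 0.18) that was 0.011 without USF1 replicate 2.

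*CTNNA1*, the link to actin, was somewhat higher in USF1 arrays at each of its 3 probesets, with overlapping groups. The brightest (210844_x_at) had values of 7.72, 7.44 and 7.51 in Empty vector arrays and 7.83, 7.58 and 7.87 in USF1 arrays, a difference of 0.20 (SE 0.11, 95% interval -0.055 to 0.46). The next (200765_x_at) had values of 6.91, 6.73 and 6.86 in Empty vector arrays and 7.16, 6.81 and 7.02 in USF1 arrays, a difference of 0.17 (SE 0.11, 95% interval -0.084 to 0.42). The dimmest (200764_s_at) had values of 5.90, 5.64 and 5.53 in Empty vector arrays and 5.98, 5.72 and 6.13 in USF1 arrays, a difference of 0.25 (SE 0.14, 95% interval -0.059 to 0.56). In each of them USF1 replicate 2 was the lowest USF1 array and Empty vector replicate 1 the highest Empty vector array, so the spread of single arrays was shared by the probesets. These probesets read the same RNA and are not replicates. The suffix _x_at marks probesets whose probes may also bind other transcripts, although the authors masked nonspecific probes.

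*CTNND1*, which stabilizes cadherins at the membrane, was slightly lower in USF1 arrays at 2 of its 3 probesets. The one with the highest mean (211240_x_at) had values of 6.59, 6.57 and 6.45 in Empty vector arrays and 6.42, 6.26 and 6.34 in USF1 arrays. The next (208862_s_at) had values of 6.69, 6.45 and 6.44 in Empty vector arrays and 6.37, 6.34 and 6.31 in USF1 arrays. In both, all USF1 arrays lay below all Empty vector arrays, by -0.19 (SE 0.088, 95% interval -0.40 to 0.0083) and -0.18 (SE 0.096, 95% interval -0.40 to 0.034). The third (208407_s_at) had values of 5.84, 5.74 and 5.58 in Empty vector arrays and 5.93, 5.61 and 5.76 in USF1 arrays, which overlap, with a difference of 0.046 (SE 0.11). The sources used here do not say which transcripts of *CTNND1* or *TMX2-CTNND1* each probeset reads.

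At a limma adjusted p-value under 0.05 over all probesets, 1 of the 11 member probesets was called, that of *CDH1*, where 11.9% of all probesets were called. The USF1 arrays lay beyond all Empty vector arrays in 4 of the 11, namely *CDH1*, 1 probeset of *CDH2* and 2 of *CTNND1*, where 36.1% of all probesets did so. As *CDH1* was chosen by this contrast, nothing is read from these counts. Of the 10 other probesets, 5 had differences above 0 and 5 below, all within 0.25 of 0. Their median size was 0.15, against 0.17 over all probesets, and the median of all signed differences was -0.065. The intervals of these 10 probesets lay between -0.42 and 0.56.

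**Figure D2:**
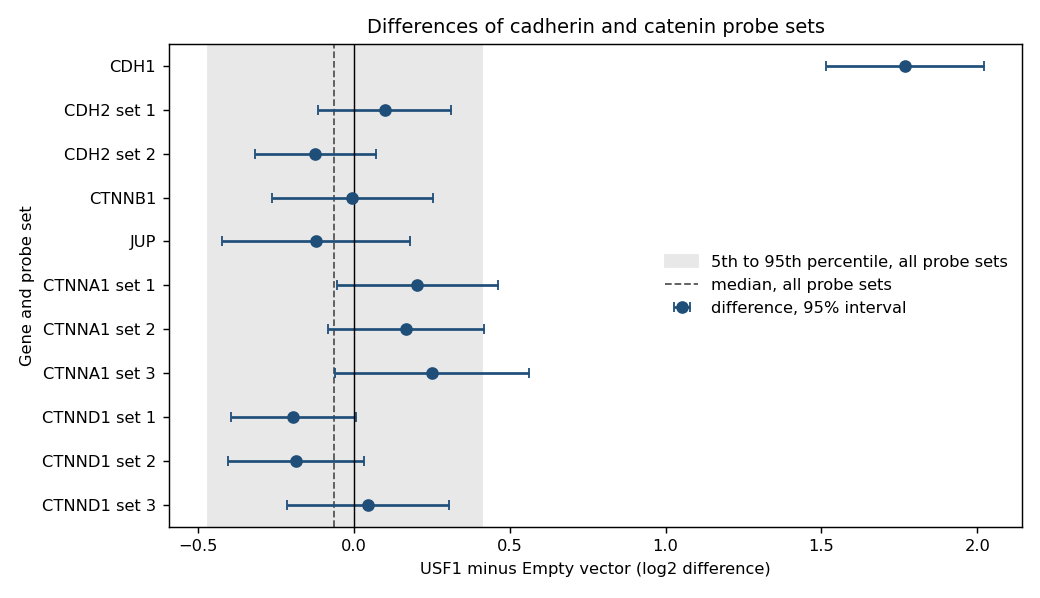
Log2 difference between USF1 and Empty vector arrays (horizontal axis) with its 95% interval from limma (bar) for each probeset of the cadherin and catenin genes (vertical axis), over the range from the 5th to the 95th percentile of all 16569 probesets (grey band, -0.47 to 0.41) and their median (dashed line). *CDH1* at 1.77 lies far right of the band, and the other 10 differences lie inside it.

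E-box sequences, which have the form CANNTG, were looked up in RefSeq windows of GRCh38.p14 that reach from 250 bases before to 50 bases after annotated start sites, as *USF1* is known to prefer the form CACGTG and the Snail and ZEB repressors the form CAGGTG. The first of these and the general form read the same on both strands, the Snail and ZEB form reads as CACCTG on the other strand, and every specific form is also a match to the general form. Windows were on hand for *CTNNB1* (1), *CTNNA1* (4), *JUP* (2) and *CDH2* (2), and not for *CDH1* and *CTNND1*. CACGTG was in 0 of these 9 windows and in 7.26% of all 35116 windows. CANNTG was in 4 of the 9, among them 2 overlapping *CTNNA1* windows that hold the same matches, and in 68.7% of all windows. CAGGTG on either strand was in 1 of the 9, at an internal start site of *JUP*, and in 20.6% of all windows. All matches lay in windows at start sites inside *CTNNA1*, *JUP* and *CDH2*. The windows at the 5' ends of *CTNNB1*, *CTNNA1*, *JUP* and *CDH2* held no CANNTG. The stretches below show the matches, which belong to 3 genes, with the E-box letters in capitals. They let a reader see that these E-boxes at internal start sites differ from CACGTG in their middle bases.
JUP, chr17:41786008-41786036, minus strand: tggcccCACCTGccgagCAGGTGagcgca
JUP, chr17:41786063-41786080, minus strand: cttgccCAACTGtggggg
CTNNA1, chr5:138875173-138875190, plus strand: actgctCAGCTGgttaat
CTNNA1, chr5:138875243-138875260, plus strand: tgatggCAGATGggtggc
CDH2, chr18:28036727-28036744, minus strand: gtgaatCAGATGtaataa
These letters are a description of the windows and do not show that a factor binds there.

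On chromosome 16, the neighbour of *CDH1* on the side of lower coordinates was another classical cadherin that also rose. *CDH1* lies at chr16:68737292-68835537 in GRCh38.p14, with *CDH3* (P-cadherin) as the next protein-coding gene on one side and *TANGO6* on the other. *CDH3* had log2 values of 3.89, 3.95 and 3.61 in Empty vector arrays and 4.61, 4.29 and 4.28 in USF1 arrays. The groups did not overlap, and the difference was 0.58 (SE 0.13, limma adjusted p-value = 0.0267), smaller than that of *CDH1*. These values are low, where background makes up more of the signal and differences are compressed. *CDH3* was not called without USF1 replicate 1, USF1 replicate 3, Empty vector replicate 2 or Empty vector replicate 3. *TANGO6* differed by -0.092 (SE 0.10, limma adjusted p-value = 0.575), with overlapping groups. Near *CDH2* on chromosome 18, the desmosomal cadherin *DSC3* is the next protein-coding gene and differed by -0.31 (SE 0.10, limma adjusted p-value = 0.0829). The nearest measured gene on the other side, *KCTD1*, with 2 protein-coding genes in between, fell by 0.54 (SE 0.11, limma adjusted p-value = 0.0228) and lost its call without USF1 replicate 1, USF1 replicate 3 or Empty vector replicate 2 (up to 0.105).

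The genes whose values over the 6 arrays were most like those of *CDH1* were ranked by Pearson's r, using the brightest probeset of a gene. The highest were *DSP-AS1* (r = 0.999), annotated here as an antisense transcript, the cell cycle regulator *RGCC* (0.998), *TRIM47* (0.998), *IGDCC4* (0.996) and the lysosomal sialic acid transporter *SLC17A5* (0.996). The lowest were *CLASRP* (r = -0.999), *PTBP2* (-0.996), *EIF2B3* (-0.993), *MMACHC* (-0.993) and *WDR5B* (-0.991). The r is set mostly by the gap between the groups, and 6 arrays in 2 groups give it without a p-value. The sizes of the changes differed widely, as *DSP-AS1* rose by 1.59 (SE 0.10) and *SLC17A5* by 0.40 (SE 0.079). *DSP-AS1* lay at 4.93, 4.68 and 4.59 in Empty vector arrays and at 6.32, 6.31 and 6.34 in USF1 arrays, so its Empty vector arrays came in the same order as those of *CDH1*. The paper lists the *DSP-AS1* probeset under the gene number of *DSP*, so the annotations disagree on which transcript it reads. The probeset named here for *DSP*, which encodes the desmosomal protein desmoplakin, differed by 0.16 (SE 0.087), from 8.75 to 8.91.

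Genes around the cadherin-catenin complex changed in both directions and mostly by little. Of 167 measured genes on 9 lists of junction, epithelial, mesenchymal, Wnt and cadherin turnover genes, 9 rose and 8 fell at a limma adjusted p-value under 0.05. Over all named genes, 5.18% rose and 8.89% fell. The median difference was -0.036 over the listed genes and -0.079 over all 9581 named genes other than members, listed genes included, and turned to 0.032 over the listed genes, against -0.010, with the median of every array set to 0. On that scale 11 listed genes rose and 5 fell, where 7.34% of those named genes rose and 5.9% fell. After a further quantile normalization 10 listed genes rose and 6 fell, where 6.81% rose and 6.86% fell. At a raw limma p-value under 0.05, given below beside counts of 0, 10.6% of those named genes were higher and 23.9% lower on the deposited scale.

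**Figure D3:**
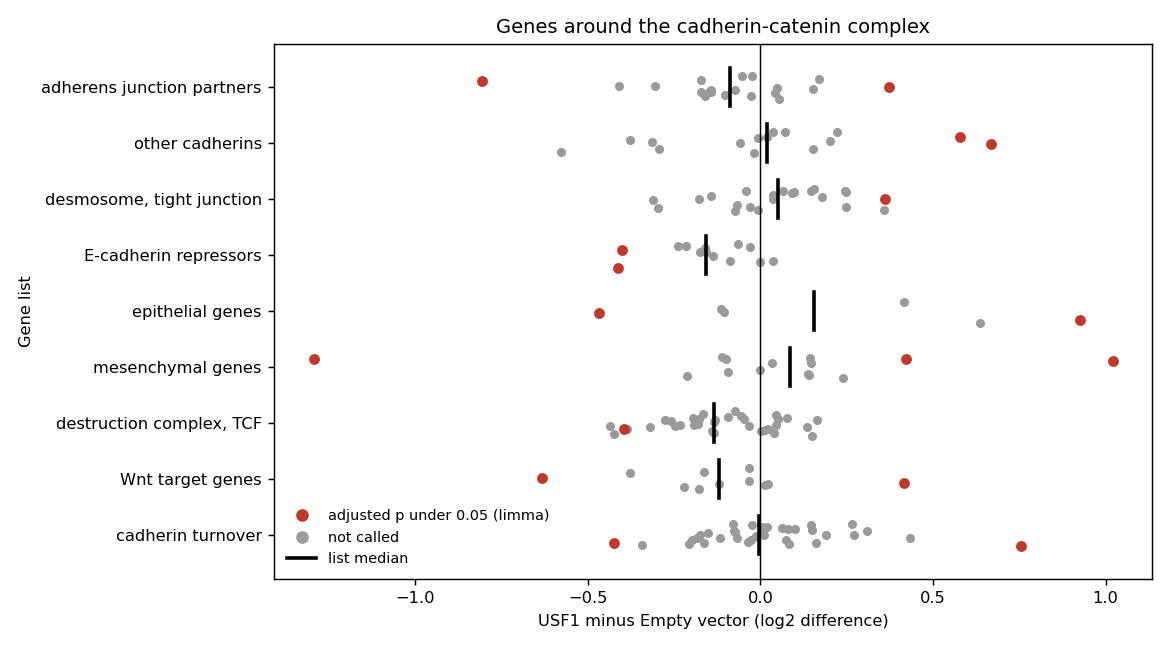
Log2 difference between USF1 and Empty vector arrays (horizontal axis) of each measured gene on 9 lists (vertical axis; vertical offsets only separate points), red for a limma adjusted p-value under 0.05, with the median of each list as a black bar. Most points lie near 0, and the genes listed as repressors of E-cadherin, which include general corepressors, have 12 of 13 points left of 0 (9 of 13 once each array's median is 0).

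Among proteins that join or border the adherens junction, *AJUBA* and *CTNNAL1* changed. Of 20 measured genes of this list, 1 rose and 1 fell, with a median difference of -0.088. *AJUBA*, a LIM protein that binds α-catenin, fell from 6.84 ± 0.095 (SD, n = 3) to 6.03 ± 0.24 (SD, n = 3), by 0.81 (SE 0.13, limma adjusted p-value = 0.00933). *CTNNAL1*, a relative of α-catenin, rose by 0.37 (SE 0.090, limma adjusted p-value = 0.0342). Vinculin (*VCL*), which binds α-catenin under tension, differed by -0.052 (SE 0.10) and *TJP1*, a scaffold of tight and adherens junctions, by -0.14 (SE 0.094) at its brighter probeset, and neither passed. Of 15 measured other cadherins and protocadherins, *CDH3* and the protocadherin *PCDH8* rose and none fell (2 higher and 4 lower at a raw limma p-value under 0.05). *PCDH8* lay at 4.42, 4.47 and 4.05 in Empty vector arrays and at 4.91, 5.15 and 4.88 in USF1 arrays. The difference was 0.67 (SE 0.13, limma adjusted p-value = 0.0192), at low values with the limit given for *CDH3*.

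Of 22 measured genes of desmosomes and tight junctions, 1 rose and none fell (2 higher and 1 lower at a raw limma p-value under 0.05). It was the desmosomal cadherin *DSC2*, at 7.28, 7.29 and 7.05 in Empty vector arrays and 7.50, 7.59 and 7.62 in USF1 arrays. Its difference was 0.36 (SE 0.098, limma adjusted p-value = 0.0471) at the brightest probeset and 0.51 (SE 0.093) and 0.87 (SE 0.30) at the others, of which the former was called as well. At the latter, Empty vector replicate 1, the array that stood apart, lay at 3.00, against 4.13 and 4.36 in replicates 2 and 3. The desmoglein *DSG2*, a partner of *DSC2*, differed by -0.074 (SE 0.10), without passing.

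Most measured genes listed as repressors of E-cadherin had a difference below 0, as did most named genes. The list also holds general corepressors and chromatin enzymes, such as histone deacetylases. Of 13 measured, 12 had a difference below 0, with a median of -0.16. Of the 9581 named genes other than members, 63.4% were below 0, with a median of -0.079. Of the repressors, 2 fell and none rose (2 lower and 0 higher at a raw limma p-value under 0.05). Over all named genes, 8.89% fell and 5.18% rose. On the scale centred by array medians, 9 of the 13 were below 0, against 51.9% of the named genes other than members, with a median of -0.090. None of the 13 passed on that scale (0 higher and 2 lower unadjusted), where 5.9% of those named genes fell and 7.34% rose. *SNAI2* (Slug) lay at 9.65, 9.99 and 9.73 in Empty vector arrays and at 9.41, 9.82 and 9.50 in USF1 arrays. These overlap, with a difference of -0.21 (SE 0.13, limma adjusted p-value = 0.315, 95% interval -0.52 to 0.094). *ZEB1* lay at 6.71, 6.92 and 6.65 in Empty vector arrays and at 6.50, 6.68 and 6.39 in USF1 arrays, a difference of -0.24 (SE 0.11, limma adjusted p-value = 0.183). *TWIST1* (-0.14, SE 0.092) and *TWIST2* (-0.088, SE 0.15) did not pass either, and *SNAI1*, *SNAI3* and *ZEB2* are not analysed here.

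The listed repressors that passed were *TCF3* and *FOXC2*. *TCF3*, which encodes the E-box binding E proteins E12 and E47, fell by 0.41 (SE 0.10, limma adjusted p-value = 0.0363) at its brightest probeset, from 7.03, 6.86 and 6.71 in Empty vector arrays to 6.47, 6.49 and 6.39 in USF1 arrays. All 6 of its probesets had differences below 0, and 2 of them were called. *FOXC2*, a forkhead factor of mesenchymal development, fell by 0.40 (SE 0.11, limma adjusted p-value = 0.0461), from 4.34, 4.06 and 4.09 to 3.66, 3.87 and 3.76. The *FOXC2* values are low, with the limit given for *CDH3*. In both genes the highest array was Empty vector replicate 1, and without it neither was called. Neither was called without USF1 replicate 1, USF1 replicate 3 or Empty vector replicate 2 either, so the loss is not particular to that array. On the centred scale the limma adjusted p-value was 0.0508 for *TCF3* and 0.0818 for *FOXC2*.

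**Figure D4:**
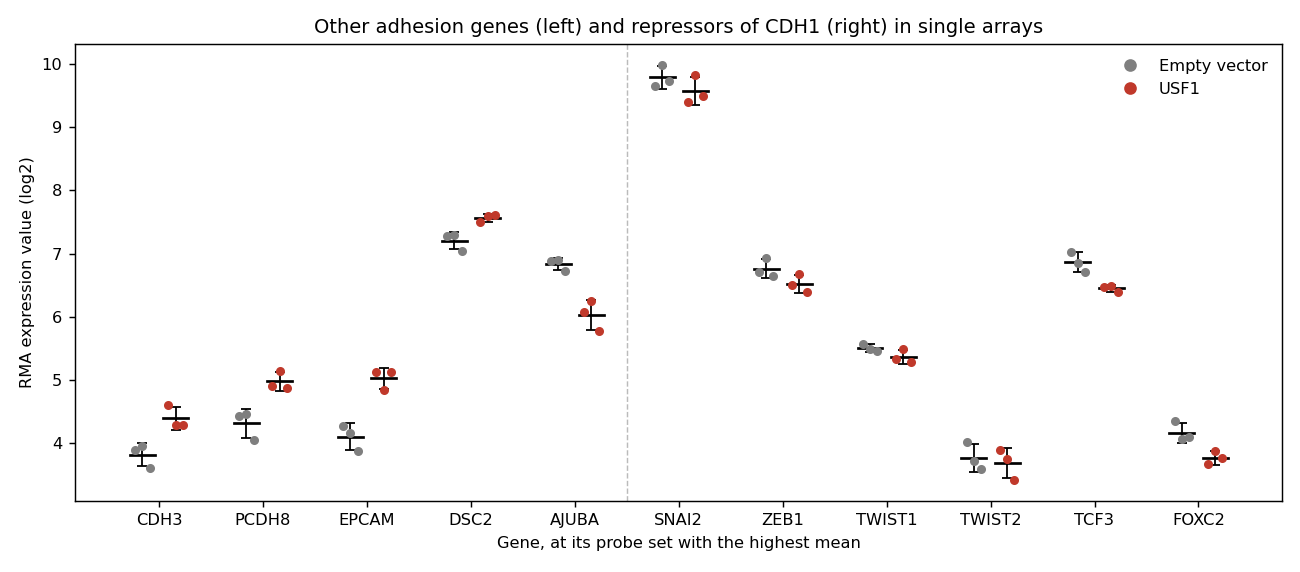
Expression by RMA (vertical axis, log2) of 5 other adhesion genes (left of the dashed line) and 6 genes listed as repressors of *CDH1* (right), at the brightest probeset of a gene (horizontal axis), each array as a point (Empty vector grey, USF1 red), long bars at the group means and error bars of 1 SD (n = 3). The groups lie apart in *CDH3*, *PCDH8*, *EPCAM*, *DSC2*, *AJUBA*, *TCF3* and *FOXC2* and overlap in *SNAI2*, *ZEB1*, *TWIST1* and *TWIST2*.

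Among those measured, epithelial and mesenchymal genes did not separate into a set that rose and a set that fell. Of 33 listed epithelial genes 6 were measured, and of 34 listed mesenchymal genes 14, so many are not covered. Of 6 measured epithelial genes, *EPCAM* rose and *CDS1* fell (3 and 1 at a raw limma p-value under 0.05). *EPCAM*, an epithelial cell adhesion molecule, lay at 4.28, 4.16 and 3.87 in Empty vector arrays and at 5.12, 4.84 and 5.12 in USF1 arrays, a difference of 0.93 (SE 0.13, limma adjusted p-value = 0.00664). *CDS1*, a CDP-diacylglycerol synthase, fell by 0.47 (SE 0.11, limma adjusted p-value = 0.0312) at 1 of its 3 probesets. Of 14 measured mesenchymal genes, 2 rose and 1 fell. Smooth muscle actin (*ACTA2*) fell by 1.29 (SE 0.14, limma adjusted p-value = 0.00251), while *TGFB2*, a ligand of the TGF-β receptors, rose by 1.02 (SE 0.11, limma adjusted p-value = 0.00289) and *S100A4* by 0.42 (SE 0.11, limma adjusted p-value = 0.0446). Vimentin (*VIM*) differed by 0.15 (SE 0.096) and fibronectin (*FN1*) by -0.11 (SE 0.085), without passing.

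Of the measured genes that act on β-catenin or respond to it, *GSK3B*, *NKD2* and *BAMBI* passed the test. Of 34 measured genes of the destruction complex, which marks β-catenin for degradation, and of the TCF factors and their partners, *GSK3B* fell and none rose (0 higher and 8 lower at a raw limma p-value under 0.05, near the 23.9% lower over named genes), with a median of -0.13 (-0.065 on the centred scale). *GSK3B*, a kinase of that complex, fell by 0.40 (SE 0.084, limma adjusted p-value = 0.0228) at 1 of its 3 probesets. The scaffolds *APC* (-0.046, SE 0.15) and *AXIN1* (-0.14, SE 0.12) and the nuclear partner *LEF1* (0.014, SE 0.080) did not pass. Of 11 measured genes that Wnt signalling can raise, *NKD2* rose by 0.42 (SE 0.086, limma adjusted p-value = 0.0215) and *BAMBI* fell by 0.63 (SE 0.15, limma adjusted p-value = 0.0319). *MYC* (-0.22, SE 0.15) did not pass, and the *NKD2* values are low (Empty vector mean 4.44). Of 34 measured genes of cadherin phosphorylation, cleavage and trafficking, *APH1A*, a subunit of γ-secretase, rose by 0.75 (SE 0.15, limma adjusted p-value = 0.0211) and *EXOC4*, a subunit of the exocyst, fell by 0.43 (SE 0.12, limma adjusted p-value = 0.0474), which was no call on the centred scale (0.0772). The median of this list was -0.0046 and turned to 0.064 on that scale. *APH1A* lay at 7.12, 7.67 and 7.70 in Empty vector arrays and at 8.34, 8.22 and 8.20 in USF1 arrays. Its lowest value belonged to Empty vector replicate 1, the array that stood apart.

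Few of these calls held without each array in turn. *AJUBA*, *EPCAM*, *ACTA2* and *TGFB2* were called in each case (limma adjusted p-value of at most 0.0436), though all but *AJUBA* have low values in a group. *PCDH8* and *APH1A* lost their call without USF1 replicate 1 and without USF1 replicate 3 (up to 0.0813). *CDH3*, *CDS1*, *GSK3B*, *NKD2* and *BAMBI* lost it without either of these, Empty vector replicate 2 or Empty vector replicate 3 (up to 0.132). *CTNNAL1*, *DSC2* and *S100A4* kept it only without Empty vector replicate 1 (otherwise up to 0.170), *TCF3* only without Empty vector replicate 3 (up to 0.146), *FOXC2* only without USF1 replicate 2 (up to 0.155) and *EXOC4* in no case (up to 0.157).

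The probeset named for *USF1* alone differed by -0.071 (SE 0.19, limma adjusted p-value = 0.836) and that of its partner *USF2* by 0.11 (SE 0.082, limma adjusted p-value = 0.397). The sources used here do not place the probes of the *USF1* probeset within the coding region or outside it, so it cannot serve as a test of plasmid expression. The paper reports over-expression of USF1 protein in these cells by western blot.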

How the data were processed

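Gene expression was measured on 6 arrays of HEK293T cells, grouped by their titles. The authors imported the arrays in R 2.8.0 with justRMA, masked mis-targeted and nonspecific probes, removed probesets with few probes or mostly absent calls, and applied ComBat for batch effect. The deposited values are log2 RMA values, and the sources used here do not name the batches. ComBat may have reduced the spread on which all standard errors rest.

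USF1 and Empty vector arrays were compared in limma 3.58.1 (lmFit, eBayes; R 4.3.3) across all 16569 probesets, without covariates, with Benjamini-Hochberg adjustment and a threshold of 0.05. As no source names separate cultures, p-values reflect array-to-array spread, which may be technical. The number of arrays limits the precision. The procedure was tested on simulated data of independent normal values. These had no outlying array and no batch correction, so the test does not cover such features of the real arrays.

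Symbols were updated through RefSeq GRCh38.p14. Of the probesets, 15099 had 1 gene, 570 several and 900 none. A gene was represented by its probeset with the highest mean. The members, lists and tests were chosen with earlier results of these data known. Named genes are the members, up to 4 called genes of each list by adjusted p-value, the Snail, ZEB and TWIST factors, the 5 genes most and least like *CDH1*, nearest measured neighbours, *USF1* and *USF2*. *DSP*, *DSG2*, *VCL*, *TJP1*, *VIM*, *NEFM*, *INA*, *NEFL*, *FN1*, *COL6A1*, *APC*, *AXIN1*, *LEF1* and *MYC* were added after their values were seen. Of the neighbours, those of *CDH1* and *CDH2* are described. Alternatives were other tests, priors, weights, scalings, filters, thresholds, the replicate number as a block, and omission of single arrays.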

Additional observations from a re-analysis of the deposited data

How the results depend on the processing

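The rise of *CDH1* lay between 1.69 and 1.88 on the log2 scale under all alternatives run. The differences of the other members at their brightest probesets stayed within 1 SD, except that *CTNND1* was at -0.11 as the mean of its 3 probesets. With arrays left out in turn, the brightest probesets ranged from 0.062 to 0.17 for *CDH2* and from -0.10 to 0.089 for *CTNNB1*. They ranged from -0.22 to 0.011 for *JUP*, from 0.15 to 0.29 for *CTNNA1* and from -0.24 to -0.15 for *CTNND1*. The dimmer *CDH2* probeset stayed below 0 (-0.17 to -0.097), and the dimmest of *CTNND1* ranged from -0.038 to 0.13. The number of member probesets called was 2 with array weights, which added 1 probeset of *CTNNA1*. It was 0 with the methods' t-test with unequal variances after adjustment. Without adjustment that test had 2 member probesets at a p-value of 0.05 or less, that of *CDH1* and the brightest of *CTNND1*, which was lower.

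Counts depended on the test. With unequal variances the methods' t-test called 0 probesets higher and 1 lower after Benjamini-Hochberg adjustment (3419 unadjusted) and 0 listed genes in either direction (10 higher and 18 lower unadjusted). With equal variances it called 84 and 76 probesets (4265 unadjusted) and 0 listed genes (12 higher and 25 lower unadjusted). Against 715 and 1259 probesets in limma, array weights gave 1277 and 2411, centring 1041 and 815, and an adjusted p-value under 0.01 gave 203 and 149. Against 9 listed genes higher and 8 lower, array weights gave 17 lower, centring 5 lower, a filter on the dimmest 25% of probesets 3 higher, and an adjusted p-value under 0.01 gave 2 and 2. Without single arrays, between 219 and 877 probesets were higher and between 147 and 1569 lower, and between 2 and 11 listed genes were higher and between 2 and 12 lower. The lowest counts came without USF1 replicate 1 or 3 and without Empty vector replicate 2. The causes were not tested.

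The replicate numbers do not show shared cultures. Same-numbered arrays deviated together with correlations of 0.096, 0.25 and 0.13, and each array correlated best with its own number in the other group, a hint from the data and not from the design. With the replicate number as a block, 908 probesets were higher and 1967 lower, 15 listed genes were lower, and *CDH1* was again the 1 member called.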
